A study of Mus musculus with 8 samples.

Results

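The oxidative phosphorylation subunits are the proteins of the 5 inner membrane complexes that pass electrons from NADH and succinate to oxygen and make ATP. Their mRNAs come from both genomes of the cell. Members were taken by symbol from mouse gene names (mt-Nd, mt-Co, mt-Atp and cytochrome b from the mitochondrial genome, and nuclear names that start with Nduf, Sdh, Uqcr, Cox4 to Cox8 or Atp5, without assembly factors and pseudogenes), and had to reach a TPM (a level scaled for gene length and library depth) of 5 in at least 2 of the 8 libraries. This gave 93 genes of the 55416 in the tables, 13 mitochondrial and 80 nuclear. By this rule the members were chosen by symbol and level, and the set itself was picked with earlier results of these data known, so levels are given here as a description.

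RNA was sequenced after poly-A selection from mouse small intestinal organoids, which are cultures grown from the intestinal epithelium of mice aged 4 to 8 weeks. All groups had the C57BL/6 background and carried Rosa26-rtTA and Col1A1-TetO-OSKM, each labelled Tg/Tg, which together form a drug-inducible cassette for the reprogramming factors Oct4, Sox2, Klf4 and Myc, and the labels do not say that it was switched on. The groups were organoids that received an X-ray dose of 6 Gy and were taken at day 7, untreated control organoids at day 7, irradiated organoids at day 4 and control organoids at day 4, with 2 libraries in each. The labels give neither the start of the day count nor whether the replicates came from separate mice, so p-values measure only the spread between these libraries, which may be technical.

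Complex I (NADH dehydrogenase) takes electrons from NADH, complex II (succinate dehydrogenase) from succinate, complex III (the cytochrome bc1 complex) passes them to cytochrome c, and complex IV (cytochrome c oxidase) to oxygen. Complex V (ATP synthase) makes ATP from the proton gradient that complexes I, III and IV build. The mitochondrial genome encodes the membrane core of complexes I, III, IV and V and is transcribed as long precursors by a dedicated polymerase, whereas complex II is wholly nuclear. In the gut epithelium, stem cells and enterocytes both depend on respiration, and enterocytes hold many mitochondria.

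By complex, the members were 7 mitochondrial and 37 nuclear genes of complex I, 4 nuclear genes of complex II, 1 and 8 of complex III, 3 and 14 of complex IV, and 2 and 17 of complex V. All 93 passed the filter on low counts and were tested. Ndufa4, which carries an NADH dehydrogenase name, is counted here with complex IV, where the protein is found. Usmg5, a small ATP synthase subunit, the ATP synthase inhibitor Atpif1 and Ndufb1-ps lie outside the members by their symbols in GENCODE M21.

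Library depth ran from 7541764 to 16054269 expected counts. The labelled epithelial cells were checked against markers. The 8 epithelial genes, Epcam and Cdh1 among them, summed to between 3910 and 6859 CPM (counts relative to library size, with the TMM scaling of edgeR between libraries). The sums were at most 10.1 CPM for 7 immune genes, 3.53 for 7 mesenchymal, 5.32 for 5 endothelial and 0.978 for 4 muscle genes, with Adgre1, Cdh5, Kdr and Actn2 at 0 counts. The sums over 10 enterocyte markers were 3326 and 3298 CPM in irradiated day 7 libraries, 1999 and 1964 CPM in control day 7 libraries, 8132 and 15009 CPM in irradiated day 4 libraries and 2478 and 2338 CPM in control day 4 libraries. The sums over 5 crypt base stem cell markers were 2695 and 2614 CPM in irradiated day 7 libraries, 4062 and 3965 CPM in control day 7 libraries, 1751 and 1698 CPM in irradiated day 4 libraries and 2927 and 2874 CPM in control day 4 libraries. Enterocyte markers were thus higher and stem cell markers lower in irradiated than in control libraries at both days, with no overlap, and the enterocyte sum was highest in irradiated replicate 2 at day 4. The sums over 5 markers of dividing cells were 1431 and 1414 CPM in irradiated day 7 libraries, 1638 and 1646 CPM in control day 7 libraries, 995 and 832 CPM in irradiated day 4 libraries and 1883 and 1782 CPM in control day 4 libraries, lower in irradiated than in control libraries at both days with no overlap. The part of these markers in the results on subunits was not tested.

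Among the levels, the mitochondrial mRNAs stood far above the nuclear ones. Mean TPM over the 8 libraries ran from 2690 to 42276 for the 13 mitochondrial genes (median 17305), led by mt-Co1, and from 8.07 to 1511 for the 80 nuclear genes (median 146), led by Atp5b, Cox4i1 and Atp5a1. At the limit, Cox7a1 was the lowest gene inside, with a second-highest TPM of 9.41, and Cox6b2 the highest outside, with 3.60.

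Among the mitochondrial mRNAs, 4 pairs of annotated genes overlap, so that some reads fall in both genes and their counts are partly shared. mt-Atp6 and mt-Co3 share 1 base, and mt-Nd5 and mt-Nd6, on opposite strands, share 14. The other 2 pairs are read from overlapping frames on 1 strand and are shown with the overlap in capitals and 20 bases on either side, from the GENCODE M21 transcripts (GRCm38, plus strand). The first lies at chrM:7907-7989, with an overlap of 43 bases between 2 ATP synthase subunits, and the second at chrM:10147-10193, with an overlap of 7 bases between 2 complex I subunits.
mt-Atp8 into mt-Atp6: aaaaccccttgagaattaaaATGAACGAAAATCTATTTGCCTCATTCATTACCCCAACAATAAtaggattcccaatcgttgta
mt-Nd4l into mt-Nd4: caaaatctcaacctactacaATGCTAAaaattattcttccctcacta
mt-Nd6 is the one member read from the other strand. The kit was directional, per the labels, but whether the authors counted by strand is not given in the sources used here. Without strand, its reads and those of the transcript opposite to it cannot be told apart, which bears on every value of mt-Nd6.

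The balance between the genomes differed between the groups. The ratio of summed mitochondrial to summed nuclear TPM was 10.1 and 8.85 in irradiated day 7 libraries, 13.6 and 14.1 in control day 7 libraries, 18.2 and 28.3 in irradiated day 4 libraries and 20.1 and 14.2 in control day 4 libraries. At day 7 both irradiated libraries lay below both controls, and at day 4 the groups overlapped. As log2 ratios, irradiated less control gave -0.55 at day 7 and 0.42 at day 4, a difference of -0.97 between the days. Day 7 less day 4 gave -1.26 in irradiated and -0.29 in control organoids. The SD between replicates, pooled over the 4 groups, was 0.30. By group it was 0.14 in irradiated day 7, 0.037 in control day 7, 0.45 in irradiated day 4 and 0.35 in control day 4 libraries. The day 4 value of 0.42 was 0.74 or 0.10 without irradiated replicate 1 or 2 and 0.67 or 0.17 without control replicate 1 or 2 of that day. The difference between the days moved with the same libraries, to -0.65 without irradiated replicate 2 of day 4. The value of -0.29 in controls was -0.040 or -0.54 without replicate 1 or 2 of day 4. These are differences of group means of 2 libraries and carry no test, because the members were chosen with results known.

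**Figure D1:**
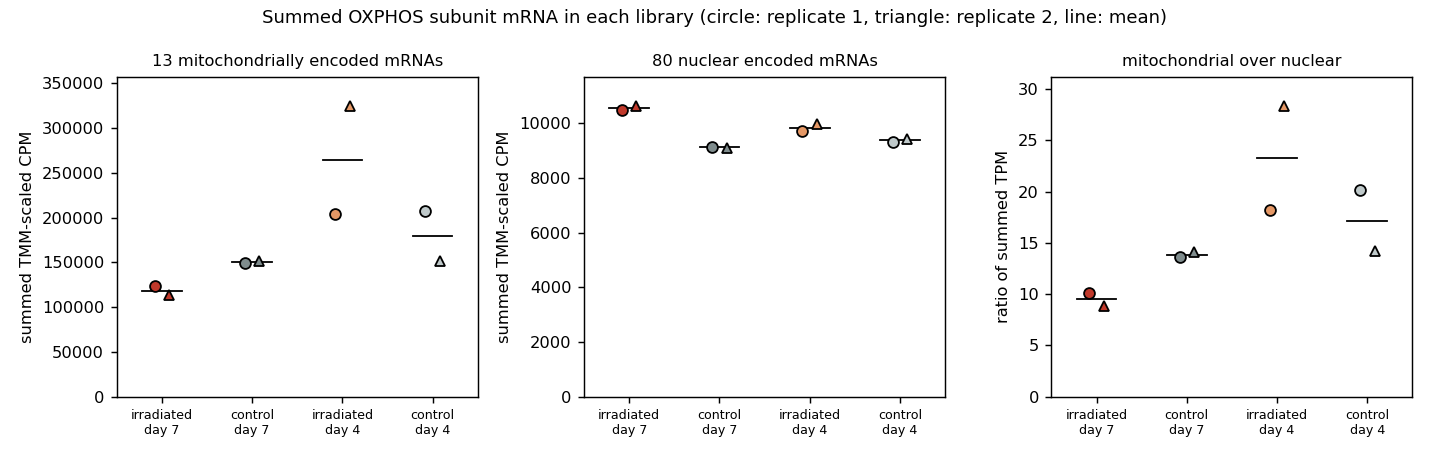
Summed TMM-scaled CPM of the 13 mitochondrial and 80 nuclear subunit mRNAs (left and middle) and the ratio of their summed TPM (right) in each of the 8 libraries, by group, with replicates as points and group means as lines. The irradiated day 7 libraries are lowest for the mitochondrial sum and highest for the nuclear sum.

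Both sums took part in this. The nuclear subunits took 1.15 and 1.17% in irradiated day 7 libraries, 0.932 and 0.939% in control day 7 libraries, 0.932 and 0.809% in irradiated day 4 libraries and 0.905 and 0.963% in control day 4 libraries of all counts, so the irradiated day 7 libraries were above all others. The mitochondrial subunits took 13.6 and 12.5% in irradiated day 7 libraries, 15.2 and 15.7% in control day 7 libraries, 19.6 and 26.3% in irradiated day 4 libraries and 20.2 and 15.5% in control day 4 libraries. The irradiated day 7 libraries were the lowest and irradiated replicate 2 at day 4 the highest. In bulk RNA, fewer cells of a type and less RNA per cell cannot be told apart. The nuclear long RNAs Malat1 and Neat1 moved with the same groups: together they took 0.119 and 0.117% in irradiated day 7 libraries, 0.266 and 0.256% in control day 7 libraries, 0.372 and 0.406% in irradiated day 4 libraries and 0.240 and 0.222% in control day 4 libraries of counts. Their part in the ratio was not tested.

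At day 7, 17 of the 80 nuclear subunits were called higher after irradiation and none lower (edgeR, adjusted p under 0.05), where 8.65% of all 14063 genes tested were called, 4.70% as higher and 3.95% as lower. Of the nuclear members, 76 had a positive log2 fold change, and the median was 0.26, against 0.00 over all genes tested. In 67 of the 80, both irradiated libraries lay above both controls, a pattern found in 33.3% of all genes tested. None of the 13 mitochondrial members was called at day 7 by edgeR. Of these 13, 11 had a negative log2 fold change with a median of -0.41, 9 had both irradiated libraries below both controls (32.6% of all genes), 5 had an unadjusted p under 0.05, and DESeq2 called 3.

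**Figure D2:**
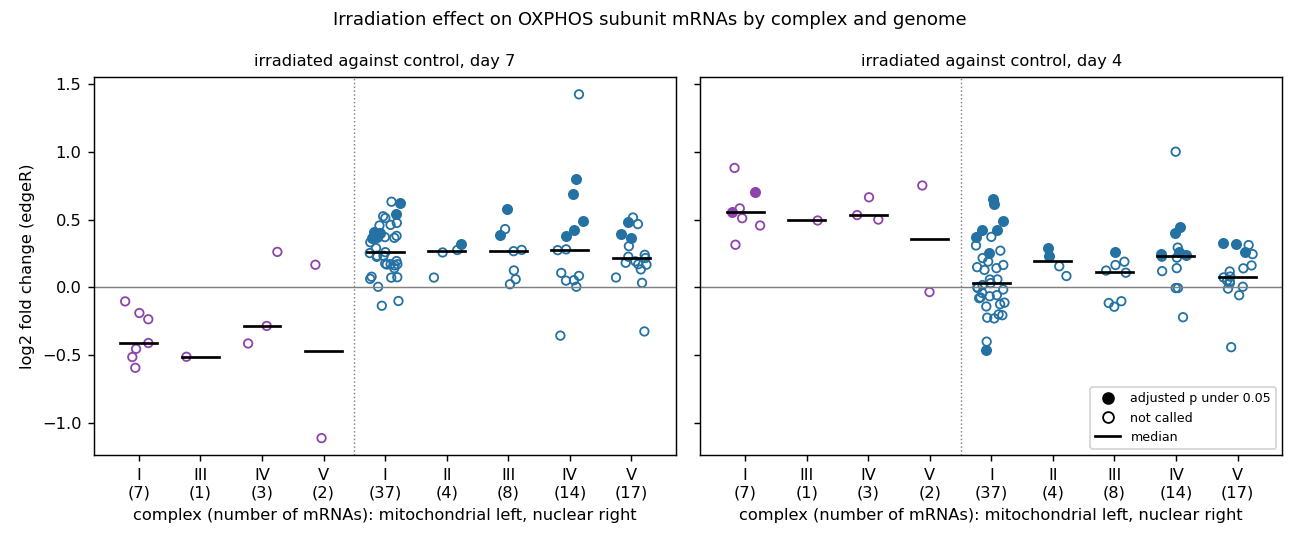
Log2 fold change of each subunit mRNA, irradiated against control, at day 7 (left) and day 4 (right), by complex and genome (purple mitochondrial, blue nuclear), with filled points past an adjusted p of 0.05 and black lines at the medians. At day 7 most nuclear points lie above 0 and most mitochondrial points below it, whereas at day 4 12 of the 13 mitochondrial points lie above 0.

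The largest called rise at day 7 was Cox6a1 (ENSMUSG00000041697), the common isoform of a regulatory complex IV subunit. It had 138 and 134 CPM in irradiated day 7 libraries, against 76.8 and 79.0 CPM in control day 7 libraries, a log2 fold change of 0.80 ± 0.08 (SE, n = 2 against 2, edgeR adjusted p = 0.000691). Cox8a, a small complex IV subunit in its common isoform, had 148 and 155 CPM in irradiated day 7 libraries, against 91.4 and 96.9 CPM in control day 7 libraries, a log2 fold change of 0.69 ± 0.08 (SE, n = 2 against 2, edgeR adjusted p = 0.00127). For both genes the replicates lay close together and the groups far apart. These 2 were the only ones of the 17 calls that held whichever of the 8 libraries was left out.

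The promoters of Cox6a1 and Cox8a, and of Atp5g2, whose irradiation effect differed between the days, are shown because nuclear respiratory genes are known for binding sites of NRF1 and of ETS factors such as GABP. Each is the RefSeq window of 300 bases around the start site (GRCm38.p6, minus strand, 5′ to 3′ along the gene): Cox6a1 at chr5:115348909-115349208, Cox8a at chr19:7217567-7217866 and Atp5g2 at chr15:102670998-102671297. Capitals mark matches on either strand to the NRF1 motif (GCGCA and GCGC with any 1 base between them) or the ETS motif CCGGAAG.
Cox6a1: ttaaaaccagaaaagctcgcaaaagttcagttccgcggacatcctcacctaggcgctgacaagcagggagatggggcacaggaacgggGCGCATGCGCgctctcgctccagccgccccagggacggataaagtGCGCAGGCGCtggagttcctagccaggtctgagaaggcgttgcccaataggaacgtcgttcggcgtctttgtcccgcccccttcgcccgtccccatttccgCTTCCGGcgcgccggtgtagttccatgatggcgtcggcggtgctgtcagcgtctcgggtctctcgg
Cox8a: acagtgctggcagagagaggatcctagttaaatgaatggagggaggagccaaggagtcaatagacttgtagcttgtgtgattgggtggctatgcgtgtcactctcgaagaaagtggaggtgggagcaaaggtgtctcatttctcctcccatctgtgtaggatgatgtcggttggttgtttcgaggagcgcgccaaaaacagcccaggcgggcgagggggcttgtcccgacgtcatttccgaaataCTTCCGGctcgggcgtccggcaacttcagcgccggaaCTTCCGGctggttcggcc
Atp5g2: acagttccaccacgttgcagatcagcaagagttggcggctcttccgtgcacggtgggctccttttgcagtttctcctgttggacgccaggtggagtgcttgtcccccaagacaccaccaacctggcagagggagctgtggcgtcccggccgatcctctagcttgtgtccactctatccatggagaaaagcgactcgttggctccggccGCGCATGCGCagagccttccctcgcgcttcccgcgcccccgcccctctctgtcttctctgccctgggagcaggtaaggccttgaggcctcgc
Cox6a1 held 2 NRF1 matches and 1 ETS match, Cox8a 2 ETS matches and Atp5g2 1 NRF1 match. Over the 66 nuclear members with a window, 25.8% held the NRF1 motif, 24.2% the ETS motif and 15.2% the YY1 motif AANATGGCG, against 5.19%, 9.93% and 2.76% of the windows of 27025 genes. These spellings were chosen after several had been looked at, and the 27025 genes were not limited by level as the members were. The differences between these shares were therefore not tested and are not read as enrichment. The YY1 motif can overlap the first codon, since it holds ATG. The windows of Ndufa1 and Ndufa4, both called higher at day 7 and at day 4, held none of the 3 motifs. A match is a description of the letters and not of binding.

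Complex I had 6 of its 37 nuclear members called higher at day 7. Ndufa1, an accessory subunit needed for assembly, had 15.6 and 18.8 CPM in irradiated day 7 libraries, against 11.0 and 11.3 CPM in control day 7 libraries, a log2 fold change of 0.62 ± 0.15 (SE, n = 2 against 2, edgeR adjusted p = 0.0361). Ndufa11, a membrane accessory subunit, had a log2 fold change of 0.54 (edgeR adjusted p = 0.0415). Ndufv1, which binds NADH and passes on the first electrons, was the one called among the 7 nuclear genes of the catalytic core, with 98.5 and 103 CPM in irradiated day 7 libraries, against 78.6 and 77.0 CPM in control day 7 libraries, a log2 fold change of 0.37 ± 0.08 (SE, n = 2 against 2, edgeR adjusted p = 0.024). In each of the 3, both irradiated libraries were above both controls. The large iron-sulfur subunit Ndufs1 had a log2 fold change of 0.071 (edgeR adjusted p = 0.583).

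In complex II, Sdhd, a membrane anchor, was the one called of 4, with 202 and 196 CPM in irradiated day 7 libraries, against 166 and 154 CPM in control day 7 libraries, a log2 fold change of 0.32 ± 0.08 (SE, n = 2 against 2, edgeR adjusted p = 0.0404). The catalytic flavoprotein Sdha had a log2 fold change of 0.072 and the iron-sulfur subunit Sdhb 0.28, with edgeR adjusted p of 0.626 and 0.0682. In complex III, Uqcrq and the core protein Uqcrc1 were the 2 called of 8. Uqcrq, a small subunit that binds near cytochrome b, had 71.9 and 78.3 CPM in irradiated day 7 libraries, against 45.9 and 54.3 CPM in control day 7 libraries, a log2 fold change of 0.58 ± 0.12 (SE, n = 2 against 2, edgeR adjusted p = 0.0164). Uqcrc1 had a log2 fold change of 0.39 (edgeR adjusted p = 0.0274), the other core protein Uqcrc2 0.060 (0.667) and the Rieske iron-sulfur protein Uqcrfs1 0.27 (0.0547).

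In complex IV, 5 of 14 nuclear members were called higher at day 7: Cox6a1, Cox8a, Ndufa4, Cox5a and Cox7a2. Ndufa4 had 152 and 145 CPM in irradiated day 7 libraries, against 106 and 105 CPM in control day 7 libraries, a log2 fold change of 0.49 ± 0.09 (SE, n = 2 against 2, edgeR adjusted p = 0.0087). Cox5a, which in cattle binds a thyroid hormone metabolite, had a log2 fold change of 0.42 and Cox7a2, the liver-type isoform, 0.38, with edgeR adjusted p of 0.0143 and 0.0311. Cox4i1, the most abundant nuclear subunit of the complex, had 321 and 334 CPM in irradiated day 7 libraries, against 299 and 309 CPM in control day 7 libraries, a log2 fold change of 0.11 ± 0.08 (SE, n = 2 against 2, edgeR adjusted p = 0.443). It was not called, nor were Cox5b (0.27, 0.0897) or Cox6b1 (0.053, 0.709).

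In complex V, 3 of 17 nuclear members were called higher at day 7: Atp5g1, Atp5g3 and Atp5d. Atp5g1, Atp5g2 and Atp5g3 encode the same mature c subunit of the proton-driven ring from 3 genes. Atp5g1 had 96.5 and 101 CPM in irradiated day 7 libraries, against 68.9 and 72.4 CPM in control day 7 libraries, a log2 fold change of 0.48 ± 0.09 (SE, n = 2 against 2, edgeR adjusted p = 0.0105). Atp5g3 had 225 and 223 CPM in irradiated day 7 libraries, against 173 and 175 CPM in control day 7 libraries, a log2 fold change of 0.36 ± 0.07 (SE, n = 2 against 2, edgeR adjusted p = 0.0156). Atp5g2 had a log2 fold change of similar size, 0.52, and an edgeR adjusted p of 0.0817. The catalytic head subunits were not called: the log2 fold change was 0.17 for Atp5a1, 0.17 for Atp5b and 0.13 for Atp5c1. The inhibitor Atpif1 had a log2 fold change of -0.073 (edgeR adjusted p = 0.691).

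The count of 17 at day 7 rested on every day 7 library. It came to 2 without irradiated replicate 1, irradiated replicate 2, control replicate 1 or control replicate 2 of that day. In those fits 0.707% to 1.11% of all genes were called, and the nuclear median was between 0.25 and 0.30. The count came to 30 without irradiated replicate 1 and to 34 without irradiated replicate 2 of day 4, where 15.7% and 16.1% of all genes were called, and to 56 when only the day 7 libraries were fitted, a fit that called 36.3% of all genes. With the mitochondrial genome's counts taken out of the libraries it was 17, and the median 0.25.

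At day 4, 18 nuclear subunits were called higher and 1 lower in irradiated organoids, where 36.5% of all genes tested were called, 20% higher and 16.5% lower. The share of nuclear members called higher was thus near that of all genes. Their median log2 fold change was 0.12, with 54 positive. Both irradiated libraries lay above both controls in 35 of the 80 and below them in 10, against 33.4% and 31.8% of all genes. On the deposited TPM that median was -0.085, on a scale where the median of all genes was -0.17, so relative to all genes it stayed positive at 0.086. Of the mitochondrial members, 2 were called higher and the median was 0.53, with 12 of 13 positive. That median was 0.83 or 0.28 without irradiated replicate 1 or 2 and 0.75 or 0.32 without control replicate 1 or 2 of that day.

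Ndufa1 was the largest called nuclear rise at day 4. It had 21.8 and 19.1 CPM in irradiated day 4 libraries, against 12.6 and 13.3 CPM in control day 4 libraries, a log2 fold change of 0.66 ± 0.15 (SE, n = 2 against 2, edgeR adjusted p = 0.00596). Ndufs5, an accessory subunit on the intermembrane side of complex I, had 13.2 and 16.0 CPM in irradiated day 4 libraries, against 9.71 and 9.33 CPM in control day 4 libraries, a log2 fold change of 0.62 ± 0.17 (SE, n = 2 against 2, edgeR adjusted p = 0.0171). Ndufa11 had a log2 fold change of 0.49 and Ndufa4 of 0.45, with edgeR adjusted p of 0.0197 and 0.00259. In all 4, both irradiated libraries lay above both controls. Ndufa6, a complex I subunit at the matrix arm, was the one called fall, with 59.0 and 70.8 CPM in irradiated day 4 libraries, against 79.9 and 98.9 CPM in control day 4 libraries, a log2 fold change of -0.46 ± 0.12 (SE, n = 2 against 2, edgeR adjusted p = 0.0148).

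Among the core genes at day 4, Ndufv1 (0.26, edgeR adjusted p = 0.034), Sdhb (0.23, 0.0489) and Uqcrc1 (0.26, 0.043) were called higher. The call of Ndufv1 depended on the scale, with a log2 fold change of -0.011 on log2(TPM + 1). Ndufs1, Sdha, Uqcrc2, Uqcrfs1, Cox4i1, Cox5a, Cox5b, Atp5a1, Atp5b and Atp5c1 were not called, with log2 fold changes between -0.10 for Uqcrc2 and 0.23 for Cox5a. Among the isoform genes, Cox6a1 (0.40, 0.00346), Cox7a2 (0.26, 0.0383), Cox6b1 (0.24, 0.0279) and Atp5g3 (0.32, 0.00671) were called higher. Outside the members, Usmg5 was called higher too (0.40, 0.0134), and Atpif1 was not called (-0.19, 0.155).

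Nuclear subunits called higher at both days numbered 9, which is 50% of the 18 at day 4 and 52.9% of the 17 at day 7: Atp5g3, Cox6a1, Cox7a2, Ndufa1, Ndufa11, Ndufa4, Ndufv1, Sdhd and Uqcrc1. Over all genes tested, 492 were called higher at both days, which is 17.5% of those at day 4 and 74.4% of those at day 7. The 2 comparisons share no library. At day 4 the nuclear calls that held whichever library was left out were Atp5g3, Cox6a1, Ndufa1, Ndufa4 and Ndufb9. The count of 19 came to 8 when control replicate 2 of day 4 was left out and to 13 when irradiated replicate 2 of that day was, to 9 or 10 without any 1 library of day 7, and to 3 when only the day 4 libraries were fitted. The share of all genes called was 26.3%, 31.2%, 29.6% to 30%, and 23.3% in these fits.

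**Figure D3:**
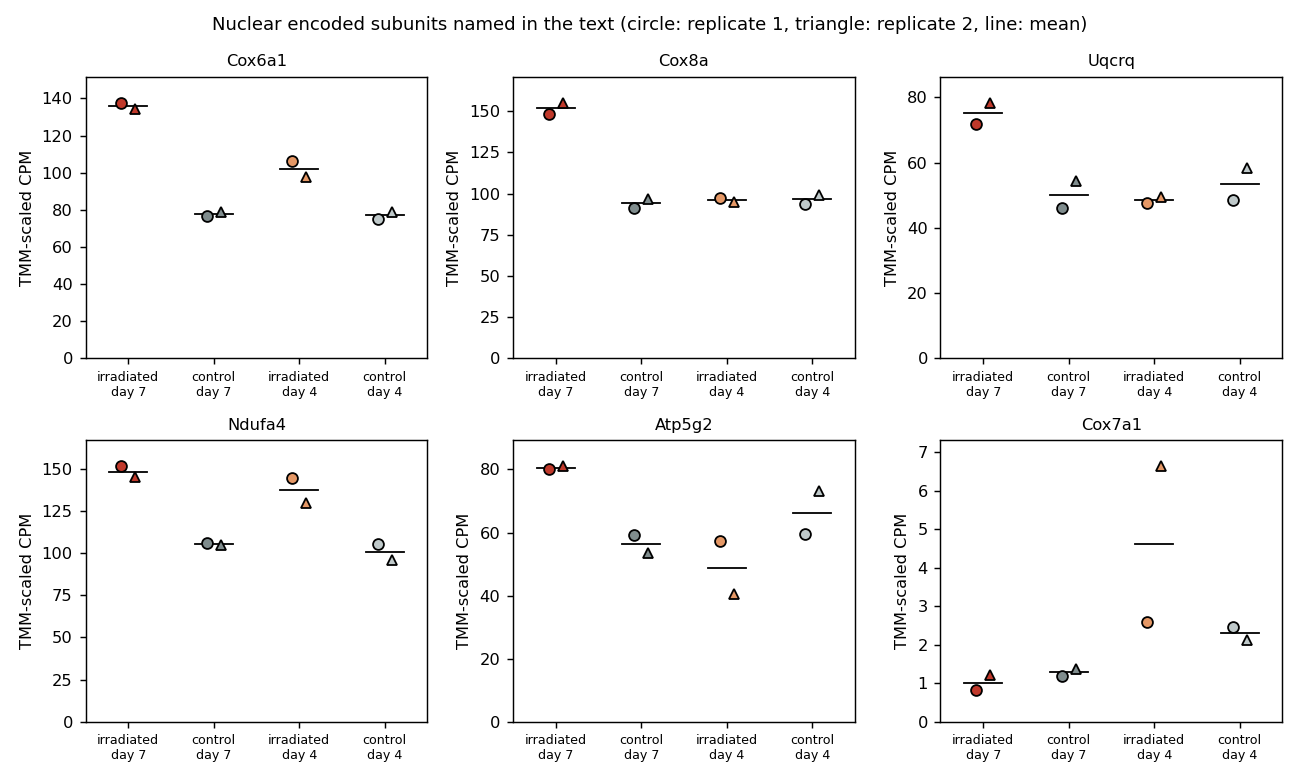
TMM-scaled CPM of 6 nuclear subunits in each library, by group, with circles for replicate 1, triangles for replicate 2 and lines at group means. Cox6a1, Cox8a and Uqcrq are highest in both irradiated day 7 libraries, and Cox7a1 is highest in irradiated replicate 2 at day 4, at 6.64 CPM.

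The mitochondrial calls at day 4 were mt-Nd4 and mt-Nd6, both membrane subunits of complex I. mt-Nd4 had 22061 and 30152 CPM in irradiated day 4 libraries, against 19397 and 12703 CPM in control day 4 libraries, a log2 fold change of 0.70 ± 0.21 (SE, n = 2 against 2, edgeR adjusted p = 0.0266). mt-Nd6 had 5959 and 8082 CPM in irradiated day 4 libraries, against 5155 and 4386 CPM in control day 4 libraries, a log2 fold change of 0.56 ± 0.16 (SE, n = 2 against 2, edgeR adjusted p = 0.0227). In both genes irradiated replicate 2 was the highest of the 4 libraries. Without it neither was called, and none of the 13 was. The count was 6 without irradiated replicate 1 or control replicate 1, 0 without control replicate 2 of day 4 or either control of day 7, and 1 without either irradiated library of day 7. The share of all genes called in the 8 fits ran from 26.3% to 34.6%.

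mt-Co1, the catalytic subunit of complex IV and the most abundant member, had 51385 and 94013 CPM in irradiated day 4 libraries, against 55292 and 47449 CPM in control day 4 libraries, a log2 fold change of 0.50 ± 0.25 (SE, n = 2 against 2, edgeR adjusted p = 0.149). Its high value in irradiated replicate 2 stood apart from the other 3, and the groups overlapped. The log2 fold change was 0.49 for mt-Cytb, which carries the electron path of complex III, 0.67 for mt-Co3 and 0.75 for mt-Atp6, the proton channel subunit of complex V. mt-Nd1, mt-Nd2 and mt-Nd3, further membrane subunits of complex I, were at 0.58, 0.46 and 0.31. None of these was called, and the one mitochondrial member with a negative value was mt-Atp8 (-0.035, edgeR adjusted p = 0.954).

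At day 7 mt-Nd5, a proton-pumping subunit of complex I, had 9581 and 8947 CPM in irradiated day 7 libraries, against 13578 and 14417 CPM in control day 7 libraries, a log2 fold change of -0.60 ± 0.19 (SE, n = 2 against 2, edgeR adjusted p = 0.0756). mt-Cytb had 13563 and 13208 CPM in irradiated day 7 libraries, against 18920 and 19306 CPM in control day 7 libraries, a log2 fold change of -0.51 ± 0.20 (SE, n = 2 against 2, edgeR adjusted p = 0.146). mt-Co1 had 31483 and 30115 CPM in irradiated day 7 libraries, against 40538 and 41618 CPM in control day 7 libraries, a log2 fold change of -0.42 ± 0.25 (SE, n = 2 against 2, edgeR adjusted p = 0.337). In these 3 genes both irradiated libraries lay below both controls without reaching the threshold. The log2 fold change was -0.24 for mt-Nd1, -0.41 for mt-Nd2 and -0.19 for mt-Nd3, none called. mt-Nd4l had 424 and 205 CPM in irradiated day 7 libraries, against 247 and 429.8 CPM in control day 7 libraries, with replicates further apart than the groups. mt-Atp8 had the largest difference, with 525 and 520.4 CPM in irradiated day 7 libraries, against 993 and 1272 CPM in control day 7 libraries, a log2 fold change of -1.12 ± 0.38 (SE, n = 2 against 2, edgeR adjusted p = 0.143). When only the day 7 libraries were fitted, 6 of the 13 were called lower, where 36.3% of all genes were called. The count was 3 without either irradiated library of day 4 (15.7% and 16.1% of all genes) and 2 without either control of day 4 (10.3% and 10.4%).

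**Figure D4:**
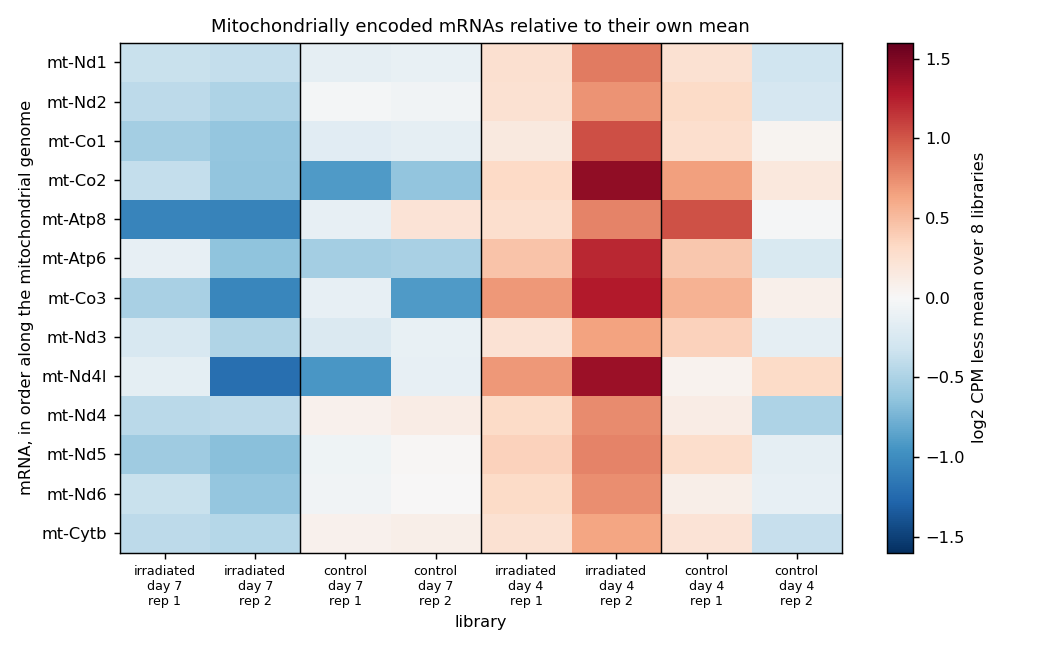
Log2 CPM of the 13 mitochondrial mRNAs in each library, less each gene's own mean over the 8 libraries (red above, blue below), in order along the genome. Irradiated replicate 2 at day 4 is above the mean for all 13 genes, and both irradiated day 7 libraries are below it for all 13.

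The log2 fold changes of the mitochondrial mRNAs did not all have the same sign at day 7. mt-Co2, which takes electrons from cytochrome c, and mt-Atp6 had positive values, 0.26 and 0.17, neither called. For mt-Atp6 the irradiated and control libraries overlapped. Whether the mRNAs differed from each other was not tested. The TPM of mt-Co2 over that of mt-Co1 was 0.761 and 0.671 in irradiated day 7 libraries, 0.413 and 0.483 in control day 7 libraries, 0.757 and 0.886 in irradiated day 4 libraries and 0.889 and 0.743 in control day 4 libraries. The 2 controls of day 7 thus lay below the 6 other libraries. As a share of the summed mitochondrial TPM, mt-Co2 took 12.1% and 11.5% in irradiated day 7 libraries and 7.33% and 8.55% in control day 7 libraries, and mt-Atp8 3.0% and 3.36% in irradiated day 7 libraries and 4.94% and 6.14% in control day 7 libraries. No test of these shares was run. Part of the mt-Atp8 sequence is shared with mt-Atp6, so the split of reads between them is uncertain.

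The irradiation effect was compared between the days in 1 test (day 7 effect less day 4 effect), where 10.1% of all genes were called, 4.60% higher and 5.51% lower. For the nuclear subunits 3 of 80 were called higher and none lower, with a median of 0.13 against -0.037 over all genes. For the mitochondrial subunits 3 of 13 were called lower and none higher, with a median of -0.95 and all 13 negative. The 2 genomes thus had medians of opposite sign. None of the 6 calls held whichever library was left out: without control replicate 2 of day 4 there were 0 mitochondrial and 1 nuclear, and without any 1 library of day 7 there were 0 mitochondrial and at most 1 nuclear, where 6.05% and 1.64% to 1.85% of all genes were called.

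The nuclear genes called were Cox8a (0.69 ± 0.11, SE, edgeR adjusted p = 0.00635), Uqcrq (0.73 ± 0.17, 0.0247) and Atp5g2 (0.96 ± 0.23, 0.0317). At day 4 Cox8a had 97.4 and 94.9 CPM in irradiated day 4 libraries, against 93.6 and 99.4 CPM in control day 4 libraries, a log2 fold change of -0.0055, set against 0.69 at day 7. Atp5g2 had 80.1 and 81.1 CPM in irradiated day 7 libraries, 59.4 and 53.4 CPM in control day 7 libraries, 57.4 and 40.4 CPM in irradiated day 4 libraries and 59.4 and 73.3 CPM in control day 4 libraries. Its irradiated libraries were above the controls at day 7 and below them at day 4, with log2 fold changes of 0.52 and -0.44. The difference for Cox6a1 was 0.40 (edgeR adjusted p = 0.0509), not called.

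In irradiated organoids, 12 of the 13 mitochondrial mRNAs were lower at day 7 than at day 4 (edgeR), where 33.0% of all genes were called and 18.3% as lower. The median log2 fold change was -1.22, against -0.035 over all genes, and in all 13 both day 7 libraries lay below both day 4 libraries (37.1% of all genes). mt-Co3 fell most, with 4787 and 3340 CPM in irradiated day 7 libraries, against 11059 and 16523 CPM in irradiated day 4 libraries, a log2 fold change of -1.76 ± 0.35 (SE, n = 2 against 2, edgeR adjusted p = 0.00992). mt-Nd6 had 3771 and 3135 CPM in irradiated day 7 libraries, against 5959 and 8082 CPM in irradiated day 4 libraries, a log2 fold change of -1.02 ± 0.17 (SE, n = 2 against 2, edgeR adjusted p = 0.00149). mt-Nd4l, the exception to the calls, had a log2 fold change of -1.66 and an edgeR adjusted p of 0.0613, with wide scatter between its replicates.

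The size of the fall depended on irradiated replicate 2 of day 4. Without it 3 of the 13 were called and the median was -0.78, where 22.8% of all genes were called. The count was 5 without irradiated replicate 1 and 2 without irradiated replicate 2 of day 7, where 14.6% and 14.1% of all genes were called. The calls of mt-Nd5 and mt-Nd6 held whichever library was left out, and these 2 genes overlap on opposite strands. On log2(TPM + 1) the median was -0.77, and -1.07 relative to all genes. In the same libraries the enterocyte marker sums were 3326 and 3298 CPM at day 7, against 8132 and 15009 CPM at day 4, and Malat1 with Neat1 took 0.119 and 0.117% of counts at day 7, against 0.372 and 0.406% at day 4. Their part in the fall was not tested.

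Of the nuclear subunits, 18 were called higher and 4 lower at day 7 than at day 4 in irradiated organoids, with a median of 0.070. Of all genes, 14.7% were called higher and 18.3% lower. In either direction 27.5% of the 80 nuclear members were called, less than the 33.0% of all genes. Ndufs7, an iron-sulfur subunit of complex I, had 32.1 and 37.9 CPM in irradiated day 7 libraries, against 22.4 and 18.4 CPM in irradiated day 4 libraries, a log2 fold change of 0.78 ± 0.21 (SE, n = 2 against 2, edgeR adjusted p = 0.0208). Atp5g2 had a log2 fold change of 0.72, Cox8a of 0.66 and Uqcrq of 0.63, with edgeR adjusted p of 0.00983, 0.000375 and 0.0034. Cox7a2l had a log2 fold change of 0.48 (edgeR adjusted p = 0.00187).

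The 4 that fell were Cox7a1, Ndufb3, Uqcrb and Cox6b1. Cox7a1, the muscle-type isoform of a complex IV subunit, had 0.816 and 1.20 CPM in irradiated day 7 libraries, against 2.58 and 6.64 CPM in irradiated day 4 libraries, a log2 fold change of -2.19 ± 0.51 (SE, n = 2 against 2, edgeR adjusted p = 0.00889). Replicate 2 of irradiated day 4 was far above the rest, and the gene was near the lowest level of any member. Ndufb3 had a log2 fold change of -0.42, Uqcrb of -0.39 and Cox6b1 of -0.30, with edgeR adjusted p of 0.00976, 0.00752 and 0.0127. On the log2(TPM + 1) scale, whose median over all genes was 0.30, Uqcrb and Cox6b1 had positive values of 0.015 and 0.12. The fit on that scale called 28.6% of all genes. The count of nuclear calls was 43 on that scale, and 10 without irradiated replicate 1 and 11 without irradiated replicate 2 of day 7.

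Between control day 7 and day 4 few genes were called. Ndufb3 was the one nuclear subunit called, lower at day 7, and none of the mitochondrial ones was called by edgeR (1 at an unadjusted p under 0.05, 0 by DESeq2), where 2.72% of all genes were called, 1.25% higher and 1.46% lower. Ndufb3 had 31.5 and 33.2 CPM in control day 7 libraries, against 45.8 and 44.7 CPM in control day 4 libraries, a log2 fold change of -0.48 ± 0.10 (SE, n = 2 against 2, edgeR adjusted p = 0.0339). The median was -0.051 for the nuclear and -0.31 for the mitochondrial members. Neither sign was stable: the nuclear median was 0.0093 on log2(TPM + 1), and the mitochondrial one was 0.079 without control replicate 1 of day 4. mt-Co2 had 6938 and 8334 CPM in control day 7 libraries, against 20364 and 14604 CPM in control day 4 libraries, a log2 fold change of -1.20 ± 0.35 (SE, n = 2 against 2, edgeR adjusted p = 0.137). Its day 7 libraries were both below those of day 4. The call of Ndufb3 was lost without control replicate 2 of day 4 or any 1 library of day 7. In those fits the share of all genes called was lower too, so the loss is not particular to this gene.

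Cox7a1 was the one muscle-type isoform among the members, and the other tissue-restricted isoforms named here lay under the TPM limit. Among 85271818 counts in all 8 libraries, Cox4i2, Cox8b, Cox8c and Cox7b2 had none, which allows up to 0.0352 CPM (3 counts), Ndufa4l2 had 1, the muscle-type Cox6a2 had 7 and the testis-type Cox6b2 had 65. These isoforms are therefore not members, and Cox6b2, the highest of them, reached 4.76 TPM in control replicate 2 of day 4. Cox6c2 and Cox6c have similar names, as do Ndufb4c and Ndufb4, and their sequences were not compared here. Whether the authors' counting split reads within these pairs is not known. Cox6c2 had 9.80 and 1.20 CPM in irradiated day 7 libraries, against 0.644 and 3.40 CPM in control day 7 libraries, with 1 high library in each group, and no call. Cox6c, by contrast, had 97.4 and 97.2 CPM in irradiated day 7 libraries, against 96.4 and 91.7 CPM in control day 7 libraries, with values that lay close together.

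Genes around the subunits were described from lists, and each count is read against the share of all genes called. Mitochondrial ribosomal proteins, which translate the 13 mRNAs, had 7 of 78 called higher and 1 lower at day 7 (median 0.22), 3 higher and 5 lower at day 4, and 26 higher and 1 lower between irradiated day 7 and day 4 (median 0.27). The called shares were 10.3%, 10.3% and 34.6%, against 8.65%, 36.5% and 33.0% of all genes. Mrps34 (0.62, 0.017) and Mrpl36 (0.57, 0.0228) were among the rises at day 7 and Mrpl23 (-1.79, 0.00621) was the fall, as log2 fold changes with edgeR adjusted p. Of 46 assembly factors, none was called at day 7 by edgeR, with 11 at an unadjusted p under 0.05 and 0 called by DESeq2. Their median log2 fold change at day 7 was 0.22, with 39 positive. In 30 of them both irradiated libraries lay above both controls, against 33.3% of all genes. A positive day 7 median was thus not particular to the subunits. At day 4, 5 were higher and 1 lower, or 13% called against 36.5% of all genes, with Cox17, a copper carrier for complex IV, at 0.66 (0.00259) and Cox15, for its heme A, at 0.61 (0.00236).

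Among 28 genes of mitochondrial RNA synthesis and processing, 1 was called higher and 4 lower at day 4, so that 17.9% were called, less than the 36.5% of all genes. Tfam, which packages and transcribes the mitochondrial genome, had 48.8 and 41.7 CPM in irradiated day 4 libraries, against 68.4 and 66.1 CPM in control day 4 libraries, a log2 fold change of -0.57 ± 0.10 (SE, n = 2 against 2, edgeR adjusted p = 0.00183). Lrpprc, which stabilises mitochondrial mRNAs, had a log2 fold change of -0.35 (edgeR adjusted p = 0.00682) and Trmt10c, a tRNA processing factor, -0.44 (0.0135). These fell where the mitochondrial mRNAs had a positive median. At day 7 none of the 28 was called by edgeR (3 at an unadjusted p under 0.05, 0 by DESeq2), and Tfam had a log2 fold change of 0.030. Between irradiated day 7 and day 4, 8 were called higher and none lower, or 28.6% called against 33.0% of all genes. Of all genes, 14.7% were called higher and 18.3% lower. Among the 8 were Polrmt, the mitochondrial RNA polymerase (0.61, 0.0176), and Tfam (0.47, 0.00707). In the same comparison 12 of 13 mitochondrial mRNAs were called lower, and a link between the 2 lists was not tested.

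Of 13 nuclear regulators, 5 were called higher and 4 lower at day 4, against 20% and 16.5% of all genes. Ppard (0.92, 0.0016), Esrra (0.44, 0.00867) and the coactivator Ppargc1a (1.07, 0.034) were higher, and Pprc1 (-0.57, 0.00345), Nrf1 (-0.36, 0.0419), Yy1 (-0.34, 0.0116) and the ETS factor Gabpa (-0.30, 0.0214) lower, as log2 fold changes with edgeR adjusted p. Ppargc1a had 22.8 and 43.8 CPM in irradiated day 4 libraries, against 14.2 and 17.4 CPM in control day 4 libraries. Its irradiated replicate 2 was the highest of the 4. Perm1, a regulator known from muscle, had the largest difference, at 4.09 and 2.50 CPM in irradiated day 4 libraries, against 1.11 and 0.610 CPM in control day 4 libraries, a log2 fold change of 1.96 ± 0.48 (SE, n = 2 against 2, edgeR adjusted p = 0.00991). At day 7 Gabpa was the one regulator called, lower at -0.33 (0.0472).

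Of 13 TCA cycle genes, which supply NADH and succinate, 6 were called higher and 1 lower at day 4, against 20% and 16.5% of all genes, and 1, Mdh2, higher at day 7 (0.38, 0.0496). Ogdh, a subunit of the 2-oxoglutarate dehydrogenase, had 416 and 494 CPM in irradiated day 4 libraries, against 239 and 239.9 CPM in control day 4 libraries, a log2 fold change of 0.93 ± 0.09 (SE, n = 2 against 2, edgeR adjusted p = 4.85e-05), and Dlst of the same enzyme 0.62. Of 16 electron carrier genes, 3 were higher and 5 lower at day 4, against the same shares of all genes, and 1 each way at day 7. Gpd2, which feeds electrons from glycerol 3-phosphate to ubiquinone, had 239 and 258 CPM in irradiated day 4 libraries, against 93.2 and 103 CPM in control day 4 libraries, a log2 fold change of 1.34 ± 0.08 (SE, n = 2 against 2, edgeR adjusted p = 3.43e-06), and at day 7 0.44 (0.0127). Dhodh, which feeds electrons from pyrimidine synthesis, had a log2 fold change of -1.18 at day 4 (edgeR adjusted p = 0.000415), and Pdss1, which makes the ubiquinone tail, -0.98 (4.4e-05). Neither mitochondrial ribosomal RNA was called at day 7 or at day 4 by edgeR (unadjusted p under 0.05 for none, and none by DESeq2). Between irradiated day 7 and day 4, mt-Rnr2 had 2915 and 2581 CPM in irradiated day 7 libraries, against 5274 and 10356 CPM in irradiated day 4 libraries, a log2 fold change of -1.51 ± 0.39 (SE, n = 2 against 2, edgeR adjusted p = 0.0302), and mt-Rnr1 a log2 fold change of -1.5 (edgeR adjusted p = 0.166). Poly-A selection limits what these 2 can show.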

How the data were processed

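RNA of 8 libraries in 4 groups was measured. The authors deposited expected counts per gene, estimates that need not be whole, and TPM per gene, per the file headers. The submitters' processing notes name RSEM 1.3.3 and STAR 2.7.3a, after Trim Galore and FastQC, and both GRCm39 and mm10 without their role; the annotation used for counting is not given in the sources used here. Per the labels' protocols the RNA was poly-A selected with a directional kit. Symbols came from GENCODE M21 and matched 52083 of 55416 IDs; the member named mt-Cyb is listed as mt-Cytb.

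Expected counts were rounded, which changed 11.4% of values. The filter of edgeR 4.0.16 (filterByExpr, minimum count 10, minimum total 15) left 14063 genes. They were fitted with 4 group means over all 8 libraries (quasi-likelihood F-test, robust, TMM, 4 residual degrees of freedom), two-sided, with Benjamini-Hochberg adjustment over all genes and a threshold of 0.05, in R 4.3.3. The fit was tested on simulated data. The SE of a log2 fold change is its size over the square root of F. Values per library are TMM-scaled CPM unless named TPM. Alternatives used DESeq2 1.42.0 and limma 3.58.1. Floors cover counting error only.

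The members and lists were chosen with earlier results of these data known. Named genes were all mitochondrial members, the 4 largest called rises and falls of nuclear members in each comparison, core subunits and isoform pairs whatever their values, and up to 3 genes of each other list by p, of which 1 gene is not reported here; other genes named (Yy1, Nrf1, Gabpa, Ppargc1a, Polrmt, Perm1, Cox6c, Cox7a2l among them) were chosen after their values were seen or stand in the lists. Several spellings of each promoter motif were looked at before those printed were chosen.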

Additional observations from a re-analysis of the deposited data

Results flagged for a closer look

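The irradiation effect differed between day 7 and day 4 for 6 subunit mRNAs, by the test of the difference itself (day 7 log2 fold change less that of day 4, edgeR with adjustment over all genes). It was negative for 3 mitochondrial complex I genes: mt-Nd4 (-1.22 ± 0.30, SE, adjusted p = 0.0318), mt-Nd5 (-1.11 ± 0.26, 0.0275) and mt-Nd6 (-1.01 ± 0.23, 0.0238). For each of them both irradiated libraries lay below both controls at day 7 and above both controls at day 4. It was positive for 3 nuclear genes: Atp5g2 (0.96), Uqcrq (0.73) and Cox8a (0.69), with adjusted p of 0.0317, 0.0247 and 0.00635 in edgeR. The same test called 10.1% of all genes, 4.60% as higher and 5.51% as lower. It called 3.75% of the nuclear and 23.1% of the mitochondrial members, so the nuclear share was below that of all genes.

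None of the 6 calls held whichever library was left out. Each fit without 1 library leaves 1 library in a group, and the share of all genes called differed between these fits. Their counts of calls are therefore not read as a property of the subunits. On log2(TPM + 1) none of the 6 was called, at adjusted p of 0.0508 for Cox8a and higher for the others. The enterocyte marker sums were highest in irradiated day 4 libraries, at 8132 and 15009 CPM, and their part in the 6 differences was not tested.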

How the results depend on the processing

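Directions of the nuclear median at day 7 and of the mitochondrial median at day 7, day 4 and between irradiated days held under every alternative run, and values that moved past the replicate SD or 1.5 times are given here; the cause was not tested. Counts of nuclear calls were 17 (day 7), 19 (day 4), 3 (the difference of the days), 22 (irradiated day 7 less day 4), 1 (control day 7 less day 4), and 2 to 34 (day 7), 8 to 18 (day 4), 0 to 11 (the difference of the days), 10 to 25 (irradiated day 7 less day 4), 0 to 3 (control day 7 less day 4) with 1 library left out. With no filter they were 35 (day 7), 12 (the difference of the days), 3 (control day 7 less day 4). With DESeq2 they were 9 (day 7), 8 (day 4), 0 (control day 7 less day 4). With log2(TPM + 1) they were 2 (day 7), 1 (day 4), 0 (the difference of the days), 43 (irradiated day 7 less day 4), 0 (control day 7 less day 4). With log2(TPM + 0.1) they were 2 (day 7), 1 (day 4), 1 (the difference of the days), 43 (irradiated day 7 less day 4), 0 (control day 7 less day 4). With only the groups compared they were 56 (day 7), 3 (day 4). With the replicate block they were 2 (control day 7 less day 4). Shares of all genes called are given in the order of these counts. With no filter they were 6.71%, 8.07% and 4%, and with DESeq2 6.27%, 27.1% and 3.02%. They were 2.69%, 19.7%, 2.14%, 28.6% and 0.403% with log2(TPM + 1), and 2.7%, 19.3%, 2.35%, 27.9% and 0.382% with log2(TPM + 0.1). With only the groups compared they were 36.3% and 23.3%, and with the replicate block 3.36%. Medians of nuclear log2 fold changes were 0.26 (day 7), 0.12 (day 4), 0.13 (the difference of the days), 0.070 (irradiated day 7 less day 4), -0.051 (control day 7 less day 4), and 0.25 to 0.30 (day 7), 0.075 to 0.13 (day 4), 0.13 to 0.21 (the difference of the days), 0.069 to 0.13 (irradiated day 7 less day 4), -0.066 to -0.046 (control day 7 less day 4) with 1 library left out. With no filter they were 0.31 (day 7), 0.077 (day 4), 0.23 (the difference of the days), 0.15 (irradiated day 7 less day 4), -0.073 (control day 7 less day 4). With a limit of 5 CPM in 2 libraries they were 0.24 (day 7), 0.14 (day 4), 0.094 (the difference of the days), 0.027 (irradiated day 7 less day 4). With log2(TPM + 1) they were 0.39 (day 7), -0.085 (day 4), 0.47 (the difference of the days), 0.47 (irradiated day 7 less day 4), 0.0093 (control day 7 less day 4). With log2(TPM + 0.1) they were 0.40 (day 7), -0.085 (day 4), 0.48 (the difference of the days), 0.47 (irradiated day 7 less day 4), 0.0094 (control day 7 less day 4). With DESeq2 size factors they were 0.15 (the difference of the days). With DESeq2 they were 0.15 (the difference of the days). With only the groups compared they were 0.094 (irradiated day 7 less day 4). Counts of mitochondrial calls were 0 (day 7), 2 (day 4), 3 (the difference of the days), 12 (irradiated day 7 less day 4) and 0 (control day 7 less day 4). With no filter they were 3 (day 7), 6 (day 4), 6 (the difference of the days), 6 (irradiated day 7 less day 4), 1 (control day 7 less day 4). With DESeq2 they were 3 (day 7), 4 (day 4). With only the groups compared they were 6 (day 7), 1 (day 4), 1 (control day 7 less day 4). With log2(TPM + 1) they were 0 (day 4), 0 (the difference of the days). With log2(TPM + 0.1) they were 0 (day 4), 0 (the difference of the days). For these counts, in order, shares of all genes called were 6.71%, 18.5%, 8.07%, 16.8% and 4% with no filter. With DESeq2 they were 6.27% and 27.1%, and with only the groups compared 36.3%, 23.3% and 4.61%. They were 19.7% and 2.14% with log2(TPM + 1), and 19.3% and 2.35% with log2(TPM + 0.1). Medians of mitochondrial log2 fold changes were -0.41 (day 7), 0.53 (day 4), -0.95 (the difference of the days), -1.22 (irradiated day 7 less day 4), -0.31 (control day 7 less day 4), and -0.46 to -0.29 (day 7), 0.28 to 0.83 (day 4), -1.21 to -0.61 (the difference of the days), -1.41 to -0.78 (irradiated day 7 less day 4), -0.43 to 0.079 (control day 7 less day 4) with 1 library left out. With log2(TPM + 1) they were -0.56 (the difference of the days), -0.77 (irradiated day 7 less day 4). With log2(TPM + 0.1) they were -0.56 (the difference of the days), -0.77 (irradiated day 7 less day 4). The log2 ratio of the genomes, with 1 library left out, was -0.64 to -0.45 (day 7), 0.10 to 0.74 (day 4), -1.29 to -0.65 (the difference of the days), -1.58 to -0.94 (irradiated day 7 less day 4), -0.54 to -0.040 (control day 7 less day 4), and counts in place of TPM or medians in place of sums moved it by less than the replicate SD. The log2(TPM + 1) scale shifted the median of all genes by 0.12 at day 7, -0.17 at day 4, 0.26 for the difference and 0.30 between irradiated days. On log2(TPM + 1) and log2(TPM + 0.1), Ndufv1 at day 4 was -0.011 and -0.011, and for irradiated day 7 less day 4 Uqcrb was 0.015 and 0.015, Cox7b 0.43 and 0.43 and Cox6b1 0.12 and 0.12, each with the opposite sign to the count fit. Same-numbered libraries did not deviate together (correlations of -0.04 to 0.06), so numbers were not taken to pair libraries. Fitted with the replicate block, 15 nuclear and 0 mitochondrial members were called at day 7, where 8.85% of all genes were called. With 2 libraries a group, few calls survive the loss of 1, and a lone library is then assumed to vary like the other groups.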
